A study of Mus musculus with 6 samples.

Results

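Splicing of 4 genes that govern cell death and DNA repair, Cflar, Bcl2l11, Birc5 and Rad52, was followed in mouse medullary thymic epithelial cells (mTECs) after knockdown of Raver2 or Setd2. The members were all rows listed under these 4 gene symbols, and they came to 8 alternative splicing events of the 4658 that could be matched across the 6 libraries, or 4 of 2685 genes. Primary mTECs, sorted as CD45-, EpCAM+, Ly51- and I-A/E+, were cultured on a fibrin gel seeded with dermal fibroblasts of human origin. They were infected with a lentivirus (pLKO.3G) that carried a short hairpin RNA and eGFP. The groups were Raver2 knockdown (hairpins sh1 and sh2, 1 library each), Setd2 knockdown (hairpins sh1 and sh2, 1 library each) and the control Ctr (2 libraries, hairpin against LacZ, which mouse cells do not carry). All 3 groups therefore shared the infection, the GFP reporter and the co-culture, and viable I-A/E+ GFP+ cells were sorted 5 days after infection. The labels do not give the strain, age or number of the mice, nor whether libraries within a group had separate cultures as their source.

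Each value is an inclusion frequency of an alternative splicing event, which runs from 0 (left out throughout) to 1 (kept throughout); how the authors computed it is not given. It comes without a read count, so the depth behind it is unknown and no counting interval can be given. The libraries listed 4777 to 4949 events each. Raver2 and Setd2 had no listed event, and a fraction carries no expression level, so the extent of either knockdown could not be checked. Of 10 thymic epithelial markers 2 had a listed event (Aire and Cd74), against 2 of 10 fibroblast markers (Postn and Fn1) and 3 of 10 leukocyte markers (Ptprc, Cd8a and Lck); a listed event does not measure how many such cells were present. In sorted bulk cells, a shift of splicing within every cell and a change in the mixture of cells cannot be told apart.

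Programmed cell death is set by opposing families of proteins. Death receptors on the cell surface activate caspase-8, which c-FLIP, the product of Cflar, holds in check, while BH3-only proteins such as Bim, the product of Bcl2l11, act on the mitochondria. Survivin, the product of Birc5, is an inhibitor of apoptosis protein that also guides chromosome segregation as part of the chromosomal passenger complex, and Rad52 anneals single strands of DNA in recombination repair. In the thymus Bim is best known for the deletion of self-reactive thymocytes that meet antigen shown by cells such as mTECs. The transcripts of these genes are themselves known targets of splicing: c-FLIP and Bim are each made in longer and shorter forms that differ in activity. Raver2 is a partner of the splicing repressor PTB, and Setd2 is a histone methyltransferase that marks transcribed genes.

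The genes lie apart in the genome, and no other annotated gene overlaps any of them in GENCODE M21 (mm10). Cflar spans chromosome 1, 58711508 to 58758884, with 13 annotated transcripts, of which 4 are protein coding. Its annotation holds 2 cassette exons, internal exons that another transcript skips, and the one that carries coding sequence has 106 bases (58729056 to 58729161). Bcl2l11 spans chromosome 2, 128126038 to 128162547, with 8 transcripts, 1 cassette exon of 90 bases (128128925 to 128129014) and 3 introns that lie wholly inside an exon of another transcript. Birc5 spans chromosome 11, 117849251 to 117855743, with 2 transcripts, both coding, no cassette exon and 1 such intron. Rad52 spans chromosome 6, 119902698 to 119922828, with 14 transcripts, 7 of them of the retained intron class, and 3 cassette exons, of which a pair of 94 bases each carries coding sequence (119911048 to 119911141 and 119913899 to 119913992). All 4 genes are on the plus strand. The deposited tables name the gene alone, so the exon or intron behind each event is unknown here, and numbers follow the row order within the gene.

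The numbering held together for these genes. In each of the 15 pairs of libraries, the listed order matched the events of Cflar, Bcl2l11 and Rad52 more closely than any other order did, and none of the 8 events repeated the values of another. The events of Cflar and Bcl2l11 are not shares of a single whole, since their fractions summed to between 1.28 and 1.52 for Cflar and between 1.69 and 2.01 for Bcl2l11 in a library. Those of Rad52 summed to 1 in every library. Among the 524 genes with exactly 2 events, 44 (8.4%) had sums within 1e-06 of 1 in all 6 libraries, so Rad52 belongs to a minority whose events are complements and count as 1 measurement.

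**Figure D1:**
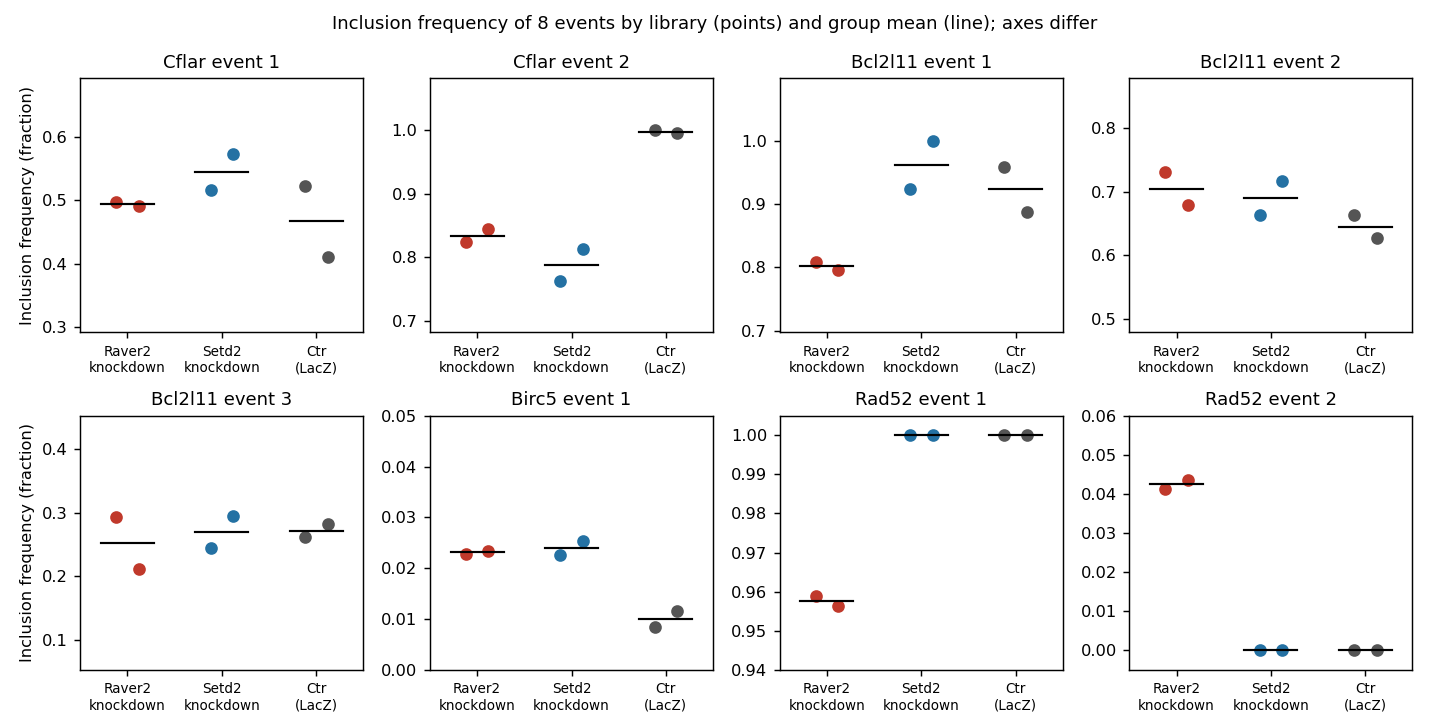
Inclusion frequency of the 8 events of Cflar, Bcl2l11, Birc5 and Rad52 in each library (points, 2 per group) with the group mean (line), for Raver2 knockdown, Setd2 knockdown and Ctr from left to right; the vertical axes differ between panels. Event 2 of Cflar is lower and Birc5 higher in all 4 knockdown libraries than in both Ctr libraries, while event 1 of Bcl2l11 and the Rad52 pair stand apart in the Raver2 knockdown libraries.

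Cflar, the brake on death receptor signalling, showed the widest difference of the 4 genes in its event 2. Inclusion of this event was 0.824 and 0.844 in the Raver2 knockdown libraries, 0.763 and 0.812 in the Setd2 knockdown libraries, and 0.9999 and 0.996 in the Ctr libraries. The event was thus kept almost without exception in Ctr and left out in part in every knockdown library, with no overlap between either knockdown and Ctr. The share left out averaged 0.166 under Raver2 knockdown and 0.212 under Setd2 knockdown, against 0.00227 in Ctr. The difference from Ctr was -0.164 ± 0.0205 for Raver2 knockdown and -0.2101 ± 0.0205 for Setd2 knockdown (SE from the fit over all events). The Raver2 libraries also lay above the Setd2 libraries, by 0.0459 ± 0.0205 in the means, with 0.0112 between the nearest libraries. That difference came to 0.0213 without Setd2 library 1 and 0.0706 without Setd2 library 2.

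Event 1 of Cflar behaved otherwise. Its inclusion was 0.497 and 0.491 under Raver2 knockdown, 0.516 and 0.572 under Setd2 knockdown, against 0.521 and 0.411 in Ctr. Ctr library 1 lay above both Raver2 libraries and Ctr library 2 below them, so the groups overlapped in each comparison with Ctr. The Ctr libraries were 0.110 apart, and 27.7% of all events had a gap over 0.1 between them. The differences of 0.0278 ± 0.0617 and 0.0780 ± 0.0617 for Raver2 and Setd2 knockdown were of the size of that spread. Without Ctr library 1 they came to 0.0830 and 0.133, and without Ctr library 2 to -0.0273 and 0.0228, so the sign for Raver2 knockdown rested on which Ctr library was used.

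Bcl2l11, which encodes the death-inducing protein Bim, set the knockdowns apart in event 1. Inclusion was 0.808 and 0.796 under Raver2 knockdown, 0.923 and 0.9999 under Setd2 knockdown, against 0.959 and 0.888 in Ctr. Both Raver2 libraries were below all 4 others, and the Setd2 libraries overlapped with Ctr. The means were 0.802 ± 0.00871 under Raver2 knockdown, 0.962 ± 0.0541 under Setd2 knockdown and 0.923 ± 0.0501 in Ctr (SD, n = 2 each). The difference was -0.121 ± 0.0388 (SE) for Raver2 knockdown against Ctr, 0.0386 ± 0.0388 for Setd2 knockdown against Ctr and -0.1599 ± 0.0388 for Raver2 against Setd2 knockdown. It was the single event of the 8 in which the mean lay below Ctr under Raver2 knockdown and above Ctr under Setd2 knockdown, and the second of these lay within the spread. Leaving out 1 library at a time moved the first difference between -0.157 and -0.0859, and the third between -0.198 and -0.122. The second came to 0.000354 without Setd2 library 2 and to 0.0768 without Setd2 library 1.

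The other events of Bcl2l11 differed less. Event 2 was included at 0.731 and 0.680 under Raver2 knockdown, 0.663 and 0.717 under Setd2 knockdown, against 0.663 and 0.627 in Ctr. The Raver2 libraries lay above both Ctr libraries, by 0.0165 at the nearest, while Setd2 library 1 fell just below Ctr library 1. The differences were 0.0602 ± 0.0361 and 0.0451 ± 0.0361. The first came to 0.0348 without Raver2 library 1, and the second to 0.0178 without Setd2 library 2 and 0.0724 without Setd2 library 1. Event 3 was mostly left out in every library, with inclusion of 0.293 and 0.211 under Raver2 knockdown, 0.245 and 0.295 under Setd2 knockdown, against 0.261 and 0.282 in Ctr. The 3 groups overlapped there, and the Raver2 libraries differed from each other by 0.0824, more than the group means did.

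Birc5, which encodes survivin, had a single event that was rarely included. Its inclusion was 0.0229 and 0.0234 under Raver2 knockdown, 0.0226 and 0.0253 under Setd2 knockdown, against 0.00838 and 0.0115 in Ctr. All 4 knockdown libraries lay above both Ctr libraries, and the knockdowns overlapped with each other. The means of 0.0231 ± 0.000349 and 0.0240 ± 0.00196 under Raver2 and Setd2 knockdown were 2.32 and 2.41 times the Ctr mean of 0.00995 ± 0.00221 (SD, n = 2 each). On the fraction scale the differences were small, at 0.0132 ± 0.00181 and 0.0140 ± 0.00181 (SE). With the depth unknown, the number of reads behind an inclusion of about 0.01 is not known either.

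Rad52, the recombination protein, was altered in the Raver2 knockdown libraries and not detectably in the Setd2 knockdown libraries. Event 1 was included at 0.959 and 0.956 under Raver2 knockdown and above 0.99 in both Setd2 knockdown libraries and both Ctr libraries. Event 2, its complement, stood at 0.0412 and 0.0437 under Raver2 knockdown and below 0.01 in the other 4 libraries. The Raver2 libraries were 0.00244 apart, at an end of the scale where gaps are small. The difference for event 2 was 0.0425 ± 0.00124 (SE) against Ctr and 0.0424 ± 0.00124 against Setd2 knockdown. For Setd2 knockdown against Ctr it was 1.82e-05 ± 0.00124. The same differences of event 1, with the sign reversed, had an SE of 0.00281. As the events are complements, that gap in SE comes from trending the variance on the mean fraction. Because the Ctr and Setd2 values are at the end of the scale, no fold change is given.

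**Figure D2:**
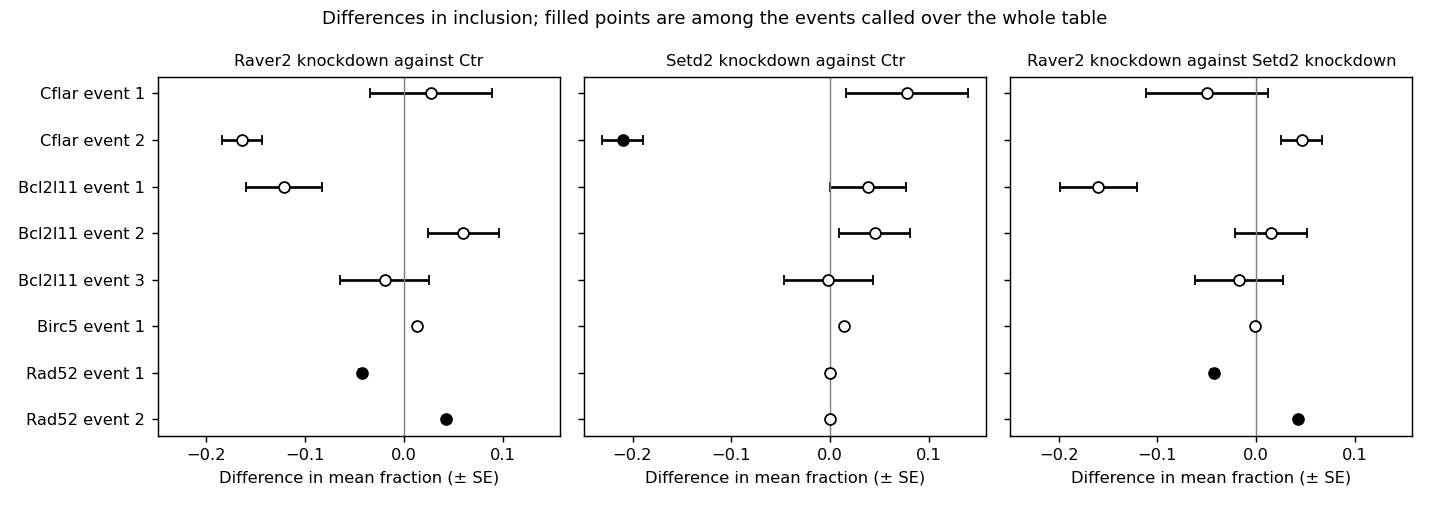
Difference in mean inclusion frequency (horizontal axis, fraction; bars are the SE from the fit over all events, hidden by the point where small) for the 8 events in 3 comparisons. The Raver2 knockdown differences reach -0.164 for event 2 of Cflar and -0.121 for event 1 of Bcl2l11, the Setd2 knockdown differences reach -0.2101 for event 2 of Cflar, and filled points are events with an adjusted p under 0.05 over all 4658 events.

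The 8 events were read against the whole table, fitted with limma over the 6 libraries and called at an adjusted p under 0.05. The genes had been chosen by their inclusion differences in these same comparisons, so the counts are a description, and no p is given for them. For Raver2 knockdown against Ctr, 2 of the 8 events were called, the Rad52 pair, where 2.43% of all events were. For Setd2 knockdown against Ctr, 1 was called, event 2 of Cflar, where 2.23% of all events were. For Raver2 against Setd2 knockdown the Rad52 pair was called, beside 0.73% of all events. With both knockdowns pooled against Ctr, 4 were called in 3 genes, namely event 2 of Cflar, Birc5 and the Rad52 pair, beside 3.07% of all events. That last call of Rad52 averaged the altered Raver2 libraries with Setd2 libraries that matched Ctr. No event of Bcl2l11 was called in any of the 4 comparisons. On other scales of the fraction more were called: event 2 of Cflar for Raver2 knockdown against Ctr on the logit and arcsine scales, and Birc5 for each knockdown against Ctr on the logit scale. Before the logit, fractions were limited to 0.01 to 0.99. That made both Ctr values of Cflar event 2 (0.9999 and 0.996) equal and raised Birc5 in Ctr library 1 from 0.00838 to 0.01. The logit calls of these events rest in part on such altered values. Event 2 of Cflar was thus called under a single knockdown on the fraction scale and under each knockdown on the other scales, and it was not called between the knockdowns.

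Without a test, the groups lay apart in 6 of the 8 events for Raver2 knockdown against Ctr (44% of all events), in 2 for Setd2 knockdown against Ctr (42.5%), in 5 for Raver2 against Setd2 knockdown (33.8%) and in 2 for both knockdowns against Ctr (24.2%). The median absolute difference of the 8 events was 0.0425 for Raver2 knockdown against Ctr and 0.0263 for Setd2 knockdown against Ctr, beside 0.0423 and 0.0412 over all events. Both comparisons use the same Ctr libraries, and a deviation of Ctr would enter the differences of Cflar event 2 and Birc5 in both. The Rad52 pair enters these counts and medians as separate events although its rows are complements. Counting both rows lowers the Setd2 median.

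The calls differed in how many of the alternative fits kept them. Leaving out a library also changes the estimate of the spread, so a call can be lost while its difference hardly moves. Over all events the calls rose without either Ctr library, and why single calls were lost was not tested. The Rad52 pair stayed called for Raver2 knockdown against Ctr in each of the 12 alternative fits (other scales, variance models, event filters or libraries). The filter to events between 0.01 and 0.99 removed both rows and is not among these fits. On the logit scale the Setd2 and Ctr values of each row were set to the same limit, 0.01 or 0.99. Rad52 was chosen with this call known, so the kept calls are a description. Against Setd2 knockdown, event 2 of Rad52 was called under 11 of 13 and event 1 under 8 of 13. Event 1 was lost without Setd2 library 1 (difference -0.0424) and without Setd2 library 2 (-0.0425). These events are complements with equal spread, so their calls differ through the variance trend on the mean fraction. Event 2 of Cflar was called for Setd2 knockdown under 5 of 12. It was lost without Ctr library 1 (-0.208), Ctr library 2 (-0.212), either Raver2 library (-0.2101 in each case) and Setd2 library 1 (-0.185). With no variance trend and with only the libraries compared it was lost too. Its difference stayed between -0.235 and -0.185 whichever library was left out. The Raver2 libraries enter that comparison only through the spread shared by all groups. For both knockdowns against Ctr it was lost without either Ctr library (-0.185 and -0.189) and without either Raver2 library (-0.182 and -0.192). In that comparison the call of Birc5 was kept under 3 of 11 alternatives. It was lost whichever library was left out (differences from 0.0120 to 0.0152), on the arcsine scale and with no variance trend. Rad52 event 1 was also lost whichever library was left out (-0.0219 to -0.0206) and with no variance trend. Event 2 of Rad52, its complement, was called under 10 of 11, and that gap again comes from the variance trend.

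Events of other genes with the closest pattern over the 6 libraries were sought for the 5 member events whose range was at least 0.05. Likeness was Pearson's r over the 6 libraries, which share their preparation and group structure, among events with a range from 0.5 to 2 times that of the member. The closest to event 2 of Cflar, of 1539 candidates, were Chkb (event 1, r = 0.991), a choline kinase gene, and Smox (event 3, r = 0.984), which encodes spermine oxidase. Chkb was included at 0.556 and 0.541 under Raver2 knockdown, 0.443 and 0.517 under Setd2 knockdown, against 0.759 and 0.726 in Ctr. For event 1 of Bcl2l11 they were Ggta1 (event 1, r = 0.983), a galactosyltransferase gene, and Zmym3 (event 2, r = 0.980). Ggta1 was included at 0.438 and 0.455 under Raver2 knockdown, 0.516 and 0.585 under Setd2 knockdown, against 0.546 and 0.504 in Ctr. Event 1 of Cflar was most like Fbxw11 (event 3, r = 0.973) and Zfp68 (event 1, r = 0.962), event 2 of Bcl2l11 most like Tmprss15 (event 1, r = 0.974) and Suz12 (event 1, r = 0.971), and event 3 of Bcl2l11 most like Cenpm (event 1, r = 0.964) and Traf3 (event 1, r = 0.9596). With 1539 to 1750 candidates and 6 libraries, r of this size is a description only.

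The remaining genes of apoptosis and DNA repair were taken as 6 lists of 175 genes in all, of which 30 had events, 50 in number. None of the 50 was called in any of the 4 comparisons (limma, adjusted p under 0.05 over all events), where 2.43% and 2.23% of all events were called for Raver2 and Setd2 knockdown against Ctr. At an unadjusted p under 0.05 there were 3 for Raver2 knockdown (12% of all events) and 9 for Setd2 knockdown against Ctr (11.6%), 5 between the knockdowns (6.12%) and 6 for both knockdowns against Ctr (12.8%). The groups lay apart in 21 of the 50 for Raver2 knockdown and in 25 for Setd2 knockdown against Ctr, beside 44% and 42.5% of all events. The median absolute difference was 0.0235 for Raver2 and 0.0254 for Setd2 knockdown, beside 0.0423 and 0.0412 over all events.

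**Figure D3:**
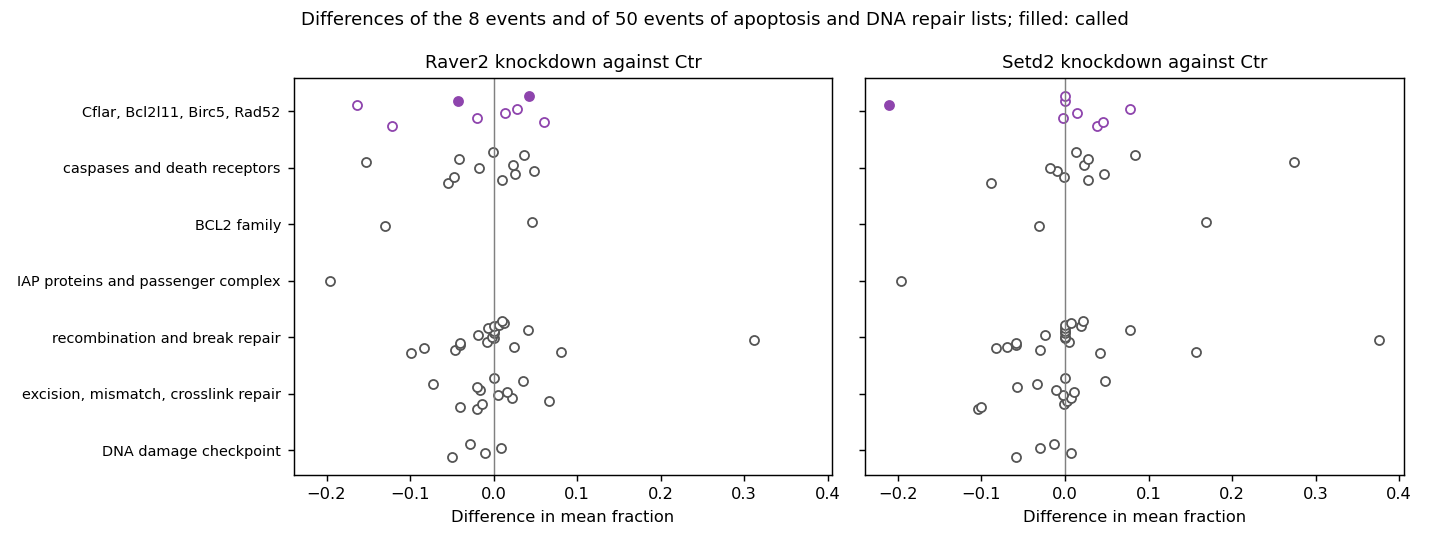
Difference in mean inclusion frequency from Ctr (horizontal axis, fraction) for the 8 events of Cflar, Bcl2l11, Birc5 and Rad52 (top row) and for the 50 events of 6 lists of apoptosis and DNA repair genes, under Raver2 knockdown (left) and Setd2 knockdown (right). Each point is an event; the called ones (filled) are in the top row only, and none of the 50 list events was called.

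Among caspases and death receptors, 8 of 26 genes had 11 events. Event 3 of Ripk3, a kinase of necroptosis, was at 0.105 and 0.0747 under Raver2 knockdown, 0.129 and 0.147 under Setd2 knockdown, against 0.0453 and 0.0620 in Ctr. All 4 knockdown libraries lay above both Ctr libraries, but the differences of 0.0360 and 0.0844 did not pass (limma, adjusted p = 0.485 and 0.1401). Event 1 of Apaf1, the scaffold of the apoptosome, had means of 0.352 ± 0.0900 under Raver2 knockdown, 0.319 ± 0.0173 under Setd2 knockdown and 0.407 ± 0.0173 in Ctr (SD, n = 2 each) and did not pass either (limma, adjusted p = 0.823 and 0.699). The event of Faim, an inhibitor of Fas-induced death, was below 0.01 in 5 libraries and at 0.0356 in Ctr library 2.

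On the list of the BCL2 family and proteins that bind it, such as Bnip2, only 2 of 23 further genes had an event, 1 each. The event of Bcl2l1, which encodes Bcl-x, was at 0.774 and 0.790 under Raver2 knockdown and 0.762 and above 0.99 under Setd2 knockdown. In Ctr it was at 0.924 and 0.8998. Both Raver2 libraries were below Ctr, while the Setd2 libraries fell on either side of it (limma, adjusted p = 0.712 and 0.9997 for Raver2 and Setd2 knockdown against Ctr). Bnip2 was at 0.433 and 0.436 under Raver2 knockdown, 0.586 and 0.528 under Setd2 knockdown, against 0.358 and 0.418 in Ctr, above Ctr in all 4 knockdown libraries (limma, adjusted p = 0.828 and 0.387). Naip2, the single gene listed of 11 in the family of Birc5 and its partners, was below 0.01 in all 4 knockdown libraries and at 0.0973 and 0.295 in Ctr. Its groups lay apart, but the Ctr libraries differed by as much as the groups did, and Naip2 did not pass (limma, adjusted p = 0.434 and 0.457). In each comparison the difference of -0.196 became -0.295 without Ctr library 1 and -0.0973 without Ctr library 2, and both were then called (limma, adjusted p = 0.000385 and 0.000525), with the remaining Ctr library assumed to vary like the other groups; over all alternatives the adjusted p ran from 0.000385 to 0.707 for Raver2 knockdown and to 0.644 for Setd2 knockdown.

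Among genes of recombination and double-strand break repair, the pathway of Rad52, 10 of 39 had 20 events. The events of Rad18, a ubiquitin ligase at stalled replication forks, held equal values and averaged 0.123 ± 0.0283 under Raver2 knockdown, 0.105 ± 0.00200 under Setd2 knockdown and 0.163 ± 0.0181 in Ctr (SD, n = 2 each). All 4 knockdown libraries were below Ctr, and neither difference passed (limma, adjusted p = 0.576 and 0.3697). Event 2 of Palb2, which ties Brca1 to Brca2, was at 0.973 and 0.928 under Raver2 knockdown, 0.847 and 0.866 under Setd2 knockdown, against 0.907 and 0.946 in Ctr. The Setd2 libraries were the lowest of the 6 there (limma, adjusted p = 0.777 and 0.403). Event 1 of Palb2 gave differences of -0.0832 and -0.0827 (limma, adjusted p = 0.724 and 0.705).

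Excision, mismatch and crosslink repair had 12 events in 6 of 51 genes. Fance, a subunit of the Fanconi anaemia core complex, was at 0.817 and 0.764 in its event 1 under Raver2 knockdown, 0.723 and 0.739 under Setd2 knockdown, against 0.821 and 0.841 in Ctr (limma, adjusted p = 0.712 and 0.242). Fancc, of the same complex, had means of 0.951 under Raver2 knockdown, 0.866 under Setd2 knockdown and 0.970 in Ctr (limma, adjusted p = 0.876 and 0.283). Both Setd2 libraries were below the other 4 in each of these genes. Event 1 of Fancl, the ubiquitin ligase of the complex, differed from Ctr by 0.0219 in Raver2 libraries and 0.00746 in Setd2 libraries (limma, adjusted p = 0.362 and 0.732). Fen1, the flap endonuclease, differed in its event 2 by -0.0726 and -0.0339 (limma, adjusted p = 0.611 and 0.7898).

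In the DNA damage checkpoint list, 3 of 25 genes had 4 events. Mdm2, the ubiquitin ligase that restrains p53, was included at 0.801 and 0.776 under Raver2 knockdown, 0.7800 and 0.779 under Setd2 knockdown, against 0.825 and 0.851 in Ctr. Every knockdown library was below Ctr, and neither difference passed (limma, adjusted p = 0.39 and 0.307). Event 1 of Rad17, a loader of the checkpoint clamp, was at 0.00696 and 0.00600 under Raver2 knockdown, 0.0213 and 0.0248 under Setd2 knockdown, against 0.0161 and 0.0166 in Ctr. The Raver2 libraries were below Ctr and the Setd2 libraries above it. The difference of -0.0166 ± 0.00160 (SE) between Raver2 and Setd2 knockdown missed the threshold (limma, adjusted p = 0.0788). It passed under 1 of 13 alternatives, the logit scale (limma, adjusted p = 0.0300). Before the logit, fractions below 0.01 were raised to 0.01. Both Raver2 values were below that limit and became equal, so the pass rests on altered values.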

How the data were processed

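The submitters' processing notes name Trimmomatic 0.39, TopHat2, Cufflinks and build mm10; their role, their order and the event caller are not given. Per the labels, RNA from sorted cells was amplified with a SMART-seq v4 kit and made into libraries with Nextera XT. Each deposited value is a fraction from 0 to 1, the inclusion frequency of an event, with no coverage.

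Events were matched between libraries by gene symbol and row order, and genes were kept if all 6 libraries listed them with equal numbers of events (2685 of 2898 genes). limma 3.58.1 (R 4.3.3) was fitted to the fractions of 4658 events with group means from all 6 libraries in 1 model, variance trended on the mean, two-sided tests and Benjamini-Hochberg adjustment over all events (threshold 0.05). Since separate cultures are not stated, p-values reflect the spread among the libraries alone, possibly a technical one. In each knockdown that spread also holds the difference between hairpins sh1 and sh2. Both Ctr libraries carry the same LacZ label, and the fit pools the spread of all groups. SEs come from that fit and are shared between comparisons of an event. The same steps were tested on simulated fractions in which only events of mid-range mean were shifted. Shifts near the ends of the scale, as for Rad52 and Birc5, were not tested. Genes were located with GENCODE M21. Python 3.11.15, pandas 2.3.3 and numpy 2.4.6 were used.

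The members and lists were chosen with earlier results of these data known. Named were all member events, list events past the threshold, for each list and each knockdown against Ctr the 2 genes with the largest absolute moderated t, and for member events of range 0.05 or more the 2 closest events. Alternatives were the logit and arcsine scales, no variance trend, only the libraries compared, only events between 0.01 and 0.99, no repeated events, genes missing from some libraries, each library left out, and a block on the hairpin number. Before the logit, fractions below 0.01 were raised to 0.01 and those above 0.99 lowered to 0.99.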

Additional observations from a re-analysis of the deposited data

Results flagged for a closer look

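The events of Rad52 are listed here because they were called between the knockdowns, although Rad52 was picked with that call known, so it is no independent evidence of a difference. Event 2 was higher by 0.0424 under Raver2 knockdown than under Setd2 knockdown (means 0.0425 and below 0.01), in 2 of 2 Raver2 libraries, and event 1, its complement, differed by -0.0424. Both were among the 34 events called between the knockdowns (limma, adjusted p under 0.05). Neither was called with no variance trend or with a block on the hairpin number. Event 1 was also lost with only the libraries compared and without either Setd2 library. The events are complements, so these further losses of event 1 come from the variance trend on the mean fraction.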

How the results depend on the processing

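Over all 4658 events, the calls numbered 113 for Raver2 knockdown against Ctr, 104 for Setd2 knockdown against Ctr, 34 for Raver2 against Setd2 knockdown and 143 for both knockdowns against Ctr (limma, adjusted p under 0.05). With only the libraries compared, the first came to 75 and the second to 0 (554 at an unadjusted p under 0.05). Among the 2000 events between 0.01 and 0.99 they came to 10, 6, 0 (107 at an unadjusted p under 0.05) and 21 in the same order; 5 of the 8 member events are outside that range and could not be fitted there. Leaving out 1 library at a time gave 74 to 291, 48 to 279, 46 to 119 and 101 to 297, with the highest of the comparisons against Ctr without Ctr library 1; the cause was not tested. On the logit scale the split between the knockdowns was 19 higher and 23 lower, against 19 and 15 on the fraction scale. The differences between hairpins 1 and 2 correlated at 0.0146 between the knockdowns across events, which shows no pairing common to all events. A pairing limited to some events could not be seen this way. With the replicate block, 0 events were called between the knockdowns (265 at an unadjusted p under 0.05, limma), so Rad52 was not called either. That fit used only the libraries compared and had few degrees of freedom to find a difference. No member event called in a comparison changed the sign of that difference under an alternative. Many alternatives refit the same group means, so the difference could not change there. Signs did change among differences that were not called. For event 3 of Bcl2l11, Setd2 knockdown against Ctr kept its sign under 11 of 13 alternatives. Without Ctr library 1, Naip2 (-0.295), Faim (-0.0356) and Fasl (0.0461, named after its values were seen) were called for Raver2 knockdown against Ctr, and without Ctr library 2 Naip2 was (-0.0973); the same events were called for Setd2 knockdown and for both knockdowns against Ctr, which share these libraries. Depth is unknown, so fractions near 0 or 1 carry no measure of precision beyond the 2 libraries of a group.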
